A study of Mus musculus with 768 samples.

Results

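The interferon receptors and the kinases and transcription factors behind them were followed in single endothelial cells as 9 genes: Ifngr1, Ifngr2, Ifnar1, Ifnar2, Jak1, Jak2, Stat2, Irf1 and Irf7. They were chosen by symbol, for their place in the pathway, and all 9 were found among the 51734 features of both count files. Earlier results of these data were known when the members and the gene lists below were chosen. Shares set beside those of all features are therefore descriptive. The study sequenced mouse cells sorted one to a well with Smart-seq2, a method that copies full-length transcripts. The cells came from 3 gates, each CD45- (no leukocytes) and CD31+ (endothelial). TU_HEV were MECA-79+ cells of PyMT tumours, LN_HEV were MECA-79+ cells of lymph node, and TU_EC were MECA-79- cells of PyMT tumours. MECA-79 is an antibody to the sulfated sugars of high endothelial venules (HEVs), the vessels by which lymphocytes enter lymph nodes, and PyMT tumours are mammary tumours driven by a viral oncogene. Strain, age, sex and any treatment of the mice are not given in the labels used here, and the dissociation described there is that of tumours.

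TU_HEV filled plates pool3 and pool4, LN_HEV pool1 and pool2, and TU_EC poolA to poolD, with 96 wells a plate. The filters kept 50 and 48 cells of the TU_HEV plates, 61 and 79 of the LN_HEV plates and 68, 81, 82 and 72 of the TU_EC plates, or 51.0%, 72.9% and 78.9% of the wells. The median total per cell was 1431390 counts in TU_HEV, 1059960 in LN_HEV and 625611 in TU_EC, and the lowest retained cell had 58737. No animal is named in the labels, so each group is 1 sample: there is no test, and plates are shown as the spread within a sample. Levels are counts summed over the cells of a group or plate, scaled to CPM, counts per 1e+06 counts. All intervals are exact 95% intervals. Those of levels and ratios cover the counting of reads only, and copies of 1 molecule are counted as reads because the protocol has no molecular identifiers. Those of shares are binomial over the sampled cells of 1 sample, and neither kind holds the spread between animals. The TU_EC libraries were numbered and deposited apart from the others, so that the gate and the library set cannot be told apart in any comparison with TU_EC.

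Among the pool1 libraries, 11 held the counts of 19 TU_HEV libraries almost gene by gene and are left out here. In each such pair, 97.4% to 99.6% of the genes with at least 10 counts in the TU_HEV library had at least as many in the pool1 library. Another 3 retained pool1 libraries (S26, S29 and S33) showed the same with 1 TU_HEV library each, at 96.6% to 99.3%, and the values given below without them differ little. Pan-endothelial markers summed to 6765 CPM in TU_HEV, 5398 in LN_HEV and 5804 in TU_EC. The HEV markers (Chst4, Glycam1, Fut7, Enpp2) summed to 744 CPM in TU_HEV, 70689 in LN_HEV and 18.5 in TU_EC. T cell markers were at 0 in every group, and of the 6 leukocyte markers only Lcp1 passed 10 CPM, with the leukocyte sum at 215.996 CPM in TU_HEV, 311.3 in LN_HEV and 158.5 in TU_EC. Ptprc, which encodes CD45, was at 0 in TU_HEV, 2.58 CPM in LN_HEV and 0 in TU_EC. Cells were filtered on these same pan-endothelial and leukocyte markers, so their sums are in part set by the filter. The 4 lymphatic markers summed to 14.7 CPM in TU_HEV, 5.75 in LN_HEV and 128.6 in TU_EC, where the plates ran from 12.0 to 178.02. All 4 passed 10 CPM in TU_EC and none did in TU_HEV or LN_HEV, with Reln at 0 in both and Pdpn at 0 in LN_HEV. Their part in the comparisons with TU_EC was not tested.

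Interferon gamma, made mainly by T and NK cells, binds a receptor of IFNGR1, the ligand-binding chain that carries the kinase JAK1, and IFNGR2, which carries JAK2. STAT dimers then enter the nucleus and bind GAS elements, as in the Irf1 promoter. The type I interferons bind IFNAR1 with TYK2 and IFNAR2 with JAK1, after which STAT2 and IRF9 enter the complex ISGF3, which binds ISRE elements. In endothelium these routes are known for raising antigen presentation and lymphocyte-attracting chemokines.

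The 300-base windows from 250 bases before to 50 after each annotated start, as RefSeq gives them for GRCm38.p6, were searched on both strands for 2 motifs. GAS was spelled TTCNNNGAA and the ISRE core as GAAA, any 2 bases and GAAA. GAS stood in 3 of the 10 member windows (Irf1 has 2 windows) against 8.30% of all 32851 promoters. The ISRE core stood in 1 of the 10, against 3.44%. The 4 windows with a match are shown because they hold the letters of the elements that the pathway's own factors bind; capitals mark the match. They lie at chr11:53769764-53770063 (Irf1), chr10:128270248-128270547 (Stat2), chr16:91484965-91485264 (Ifnar1) and chr16:91372533-91372832 (Ifnar2), all on the plus strand.
Irf1: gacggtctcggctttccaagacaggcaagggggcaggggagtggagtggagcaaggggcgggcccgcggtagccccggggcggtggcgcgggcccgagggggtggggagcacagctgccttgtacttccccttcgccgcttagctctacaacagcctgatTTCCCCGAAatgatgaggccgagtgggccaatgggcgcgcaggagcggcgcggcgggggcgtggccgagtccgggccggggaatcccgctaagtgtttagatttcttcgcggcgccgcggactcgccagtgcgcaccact
Stat2: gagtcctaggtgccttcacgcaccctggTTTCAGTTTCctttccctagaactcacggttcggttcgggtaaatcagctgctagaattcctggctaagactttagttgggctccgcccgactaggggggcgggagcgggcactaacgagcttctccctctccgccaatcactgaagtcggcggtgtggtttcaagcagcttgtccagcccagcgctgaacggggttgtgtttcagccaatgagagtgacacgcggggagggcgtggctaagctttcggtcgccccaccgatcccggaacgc
Ifnar1: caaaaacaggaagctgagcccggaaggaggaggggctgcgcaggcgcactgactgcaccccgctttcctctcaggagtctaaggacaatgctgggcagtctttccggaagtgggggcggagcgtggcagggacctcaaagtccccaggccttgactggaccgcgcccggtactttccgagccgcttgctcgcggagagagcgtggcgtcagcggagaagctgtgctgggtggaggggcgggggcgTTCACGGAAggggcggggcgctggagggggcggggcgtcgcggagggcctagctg
Ifnar2: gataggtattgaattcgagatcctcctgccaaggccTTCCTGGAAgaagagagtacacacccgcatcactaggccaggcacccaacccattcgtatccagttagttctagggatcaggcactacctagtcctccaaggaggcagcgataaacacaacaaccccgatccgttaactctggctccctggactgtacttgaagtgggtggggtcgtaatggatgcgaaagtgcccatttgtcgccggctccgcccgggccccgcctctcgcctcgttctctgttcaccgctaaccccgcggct
The match began 90 bases before the start in Irf1, 5 in Ifnar1, and in the distal part of the window in Stat2 and Ifnar2. These matches describe the letters and no binding was measured. Of these 4 genes, Irf1 and Stat2 were more than 2-fold higher in TU_HEV than in LN_HEV and Ifnar1 and Ifnar2 were not. Jak2 and Irf7, the other members past 2-fold in that comparison, had neither motif in these windows.

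**Figure D1:**
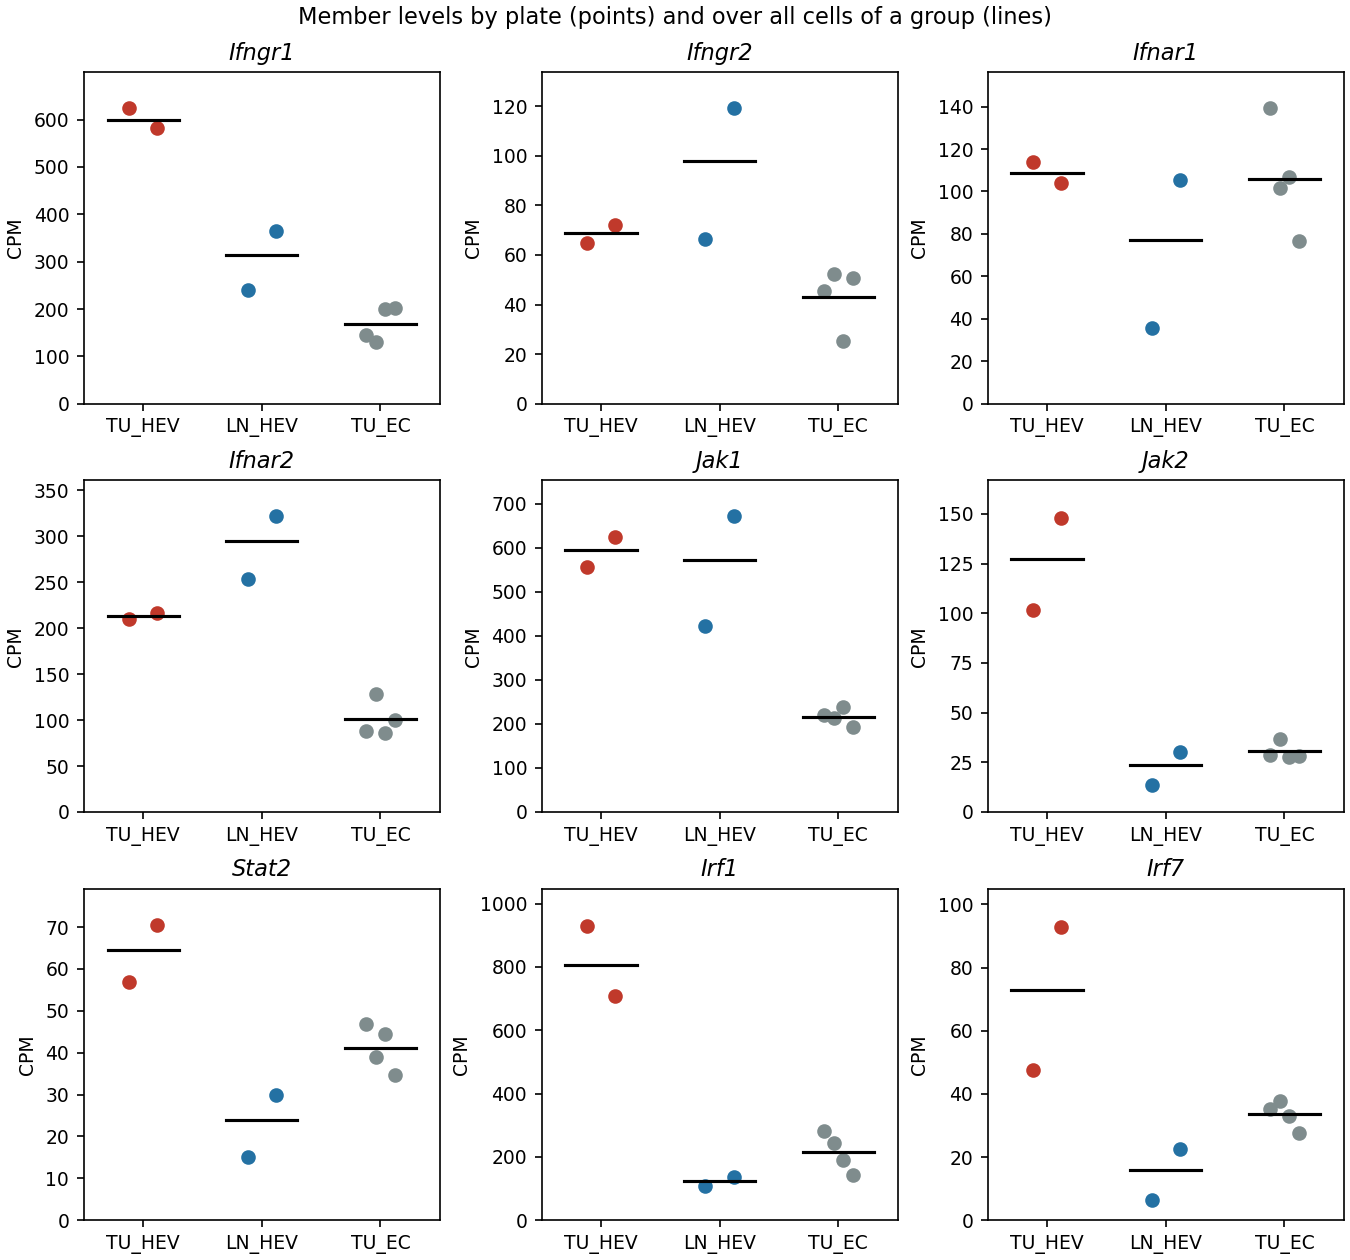
Level of each member in CPM (linear axis from 0) by group. Points are plates (2 of TU_HEV, 2 of LN_HEV, 4 of TU_EC) and lines the sum over all retained cells of the group. Irf1, Jak2, Irf7 and Stat2 have every TU_HEV plate above every plate of the other groups, and so does Ifngr1. Ifngr2, Ifnar2 and Jak1 are highest in a LN_HEV plate. The share of all features whose plates separate in this way is not given here.

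The first comparison set MECA-79+ cells of tumour against those of lymph node. Irf1, Jak2, Irf7 and Stat2 were each at least 2-fold higher in TU_HEV than in LN_HEV. That is 4 of 9 members, where 21.9% of the 9449 features with 10 CPM or more in either group were 2-fold higher. None was 2-fold lower, against 8.87% of features. In all 4 pairs of plates, 3 members (Irf1, Jak2 and Irf7) were 2-fold higher, where 11.3% of features were, and 0 were 2-fold lower, where 3.97% were. The receptor chains and Jak1 lay within 2-fold. The median log2 ratio of the 9 members was 0.93 and that of all features 0.29.

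In the second comparison, within tumours, MECA-79+ cells had 6 of 9 members at least 2-fold higher than MECA-79- cells: Jak2, Irf1, Ifngr1, Jak1, Irf7 and Ifnar2. Among 9245 features 20.6% did the same. None was 2-fold lower, against 6.55%. The 4 members Ifngr1, Jak1, Jak2 and Irf1 were 2-fold higher in all 8 pairs of plates, where 6.12% of features were, and 0 were 2-fold lower, where 2.22% were. The median log2 ratio was 1.12 for the members and 0.40 for all features. In the third, LN_HEV over TU_EC, Ifnar2, Jak1 and Ifngr2 were 2-fold higher (3 of 9, against 17.2% of 9235 features) and Irf7 was 2-fold lower (1 of 9, against 15.7%). No member passed 2-fold in all 8 pairs of those plates, where 6.32% of features did so upward and 8.5% downward. Without pool2 these counts were 1 higher and 4 lower, and without pool1 they were 4 higher and 0 lower. The median log2 ratio of all features there, 0.13, moved as well, to -0.24 without pool2 and 0.31 without pool1. The comparisons share groups, so they are not independent of each other.

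**Figure D2:**
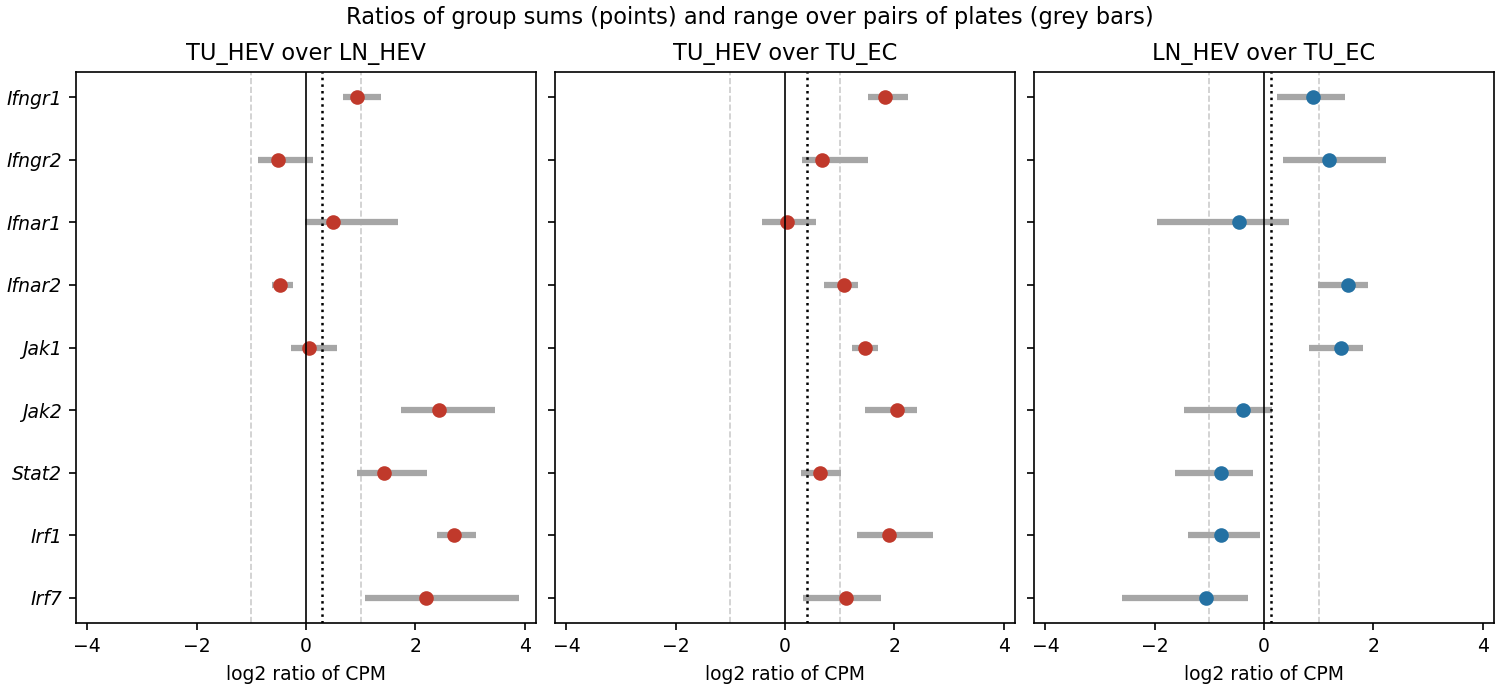
The log2 ratio of CPM for each member in the 3 comparisons, with points for the sums over cells and grey bars for the lowest and highest ratio among pairs of plates. The solid line marks 0, the dotted line the median of all features (0.29, 0.40 and 0.13) and the dashed lines 2-fold. In TU_HEV over LN_HEV, Irf1, Jak2 and Irf7 lie wholly past 2-fold.

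Ifngr1, the ligand-binding chain of the interferon gamma receptor (chr10:19591949-19610229, plus strand, GRCm38), was at 623 and 581 CPM in the TU_HEV plates and 239.4 and 364.6 in the LN_HEV plates. The TU_EC plates had 145.1, 130.8, 200.8 and 203.03 CPM. The order TU_HEV, LN_HEV, TU_EC held in every plate, with no overlap between groups. For this and the like statements below, the share of all features whose plates separate so is not given. Over all cells Ifngr1 stood at 599.9 CPM (596 to 604) in TU_HEV, 314.04 (311.1 to 316.97) in LN_HEV and 169.4 (167.7 to 171.1) in TU_EC. The ratio was 1.91 (1.89 to 1.93) for TU_HEV over LN_HEV, 3.54 (3.50 to 3.58) for TU_HEV over TU_EC and 1.85 (1.83 to 1.88) for LN_HEV over TU_EC. The first of these was 2.51 without pool2.

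Ifngr2, the second chain, which brings JAK2 (chr16:91547072-91565623, plus), had another order. Its TU_HEV plates were at 64.7 and 72.3 CPM, its LN_HEV plates at 66.4 and 119.04, and its TU_EC plates at 45.6, 52.4, 25.3 and 50.6. The lymph node plate pool2 was the highest, pool1 lay within the TU_HEV plates, and the TU_EC plates were all lower. The level was 68.9 CPM in TU_HEV, 97.8 in LN_HEV and 43.1 in TU_EC. The ratio of TU_HEV over LN_HEV was 0.705 (0.687 to 0.723), or 1.42-fold lower, and 1.04 without pool2, so the direction rests on that plate. TU_HEV over TU_EC was 1.60 (1.55 to 1.64), and LN_HEV over TU_EC was 2.27 (2.21 to 2.33) but 1.54 without pool2 and 0.98 on the log2 scale without poolC.

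Ifnar1, the chain of the type I receptor that binds TYK2 (chr16:91485238-91507441, plus), was at like levels in the tumour groups. It had 114.05 and 104.1 CPM in the TU_HEV plates, 35.6 and 105.2 in the LN_HEV plates, and 139.4, 101.8, 106.95 and 76.6 in the TU_EC plates. Both TU_HEV plates and pool2 fell inside the TU_EC range, and pool1 lay far below. Between the tumour groups, TU_HEV over TU_EC was 1.02 (1.00 to 1.04), with a log2 ratio of 0.03 that became -0.40 with median-of-ratios size factors in place of totals. TU_HEV over LN_HEV was 1.41 (1.37 to 1.44), and 3.04 without pool2. LN_HEV over TU_EC was 0.728 (0.711 to 0.745), and 0.336 without pool2.

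Ifnar2, the chain that carries JAK1 and STAT2 (chr16:91372783-91405589, plus), was highest in lymph node. Its plates read 209.6 and 216.2 CPM in TU_HEV, 253.97 and 322.3 in LN_HEV, and 88.4, 128.5, 86.0 and 99.9 in TU_EC. The groups did not overlap. The ratio of TU_HEV over LN_HEV was 0.724 (0.713 to 0.734), that is 1.38-fold lower, and below 1 in all 4 plate pairs. TU_HEV over TU_EC was 2.10 (2.07 to 2.14), or 1.56 with size factors and 0.99 on the log2 scale without poolC, and LN_HEV over TU_EC was 2.91 (2.86 to 2.95). A neighbouring gene model on the same strand, Gm21970, covers 9.46% of the Ifnar2 exon bases. It had 2.02 CPM in TU_HEV, 2.76 in LN_HEV and 2.60 in TU_EC.

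Jak1, the kinase that both receptors use (chr4:101152367-101265282, minus), separated the MECA-79+ gates from TU_EC and not from each other. It had 558 and 624 CPM in the TU_HEV plates, 423 and 673 in the LN_HEV plates, and 219.4, 213.02, 238.7 and 192.6 in the TU_EC plates. The TU_HEV plates lay between the LN_HEV plates, and all 4 TU_EC plates lay below. TU_HEV over LN_HEV was 1.04 (1.03 to 1.05), a log2 ratio of 0.05 that became -0.23 with size factors and -0.18 without pool1. TU_HEV over TU_EC was 2.74 (2.71 to 2.77) and LN_HEV over TU_EC 2.64 (2.61 to 2.67), the second of them 1.95 without pool2.

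Jak2, the kinase on IFNGR2 and on many cytokine receptors (chr19:29251828-29313080, plus), was by contrast far higher in TU_HEV than in both other groups. Its plates read 101.4 and 147.8 CPM in TU_HEV, 13.4 and 30.4 in LN_HEV, and 28.9, 36.9, 27.6 and 28.4 in TU_EC. Both TU_HEV plates lay far above the other 6, and pool2 lay inside the TU_EC range. The level was 127.3 CPM (125.5 to 129.2) in TU_HEV, 23.5 (22.8 to 24.4) in LN_HEV and 30.6 (29.9 to 31.4) in TU_EC. The level in TU_HEV over that in LN_HEV was 5.41 (5.21 to 5.61), with 3.33 to 11.0 over plate pairs and 9.50 without pool2. The ratio to TU_EC was 4.16 (4.04 to 4.27), above the ratio of 95.1% of features, with 2.75 to 5.35 over plate pairs. LN_HEV over TU_EC was 0.769 (0.737 to 0.801), with 0.437 without pool2 and 1.07 when the 11 pool1 libraries were put back.

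Per kilobase of exon (all exons of a gene in GENCODE joined), on which scale genes can be compared, the paired chains stood in different proportions in the 3 groups. Ifngr1 over Ifngr2 was 11.5 in TU_HEV (10.6 and 12.8 in its plates), 4.25 in LN_HEV (4.05 and 4.77) and 5.19 in TU_EC (3.31 to 10.5 over plates). The TU_HEV plates lay above the others, with poolC of TU_EC close below. Ifnar2 over Ifnar1 was 3.51 in TU_HEV, 6.82 in LN_HEV and 1.71 in TU_EC, with no overlap between plates of different groups. Jak2 over Jak1 was 0.308 in TU_HEV, 0.0591 in LN_HEV and 0.203 in TU_EC. Its plate values were 0.261 and 0.341 in TU_HEV, 0.0455 and 0.0649 in LN_HEV and 0.166 to 0.249 in TU_EC, again apart. Of all members, Ifngr1 and Irf1 were the most abundant per kilobase in TU_HEV, at 210.7 and 202.7 CPM per kb.

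**Figure D3:**
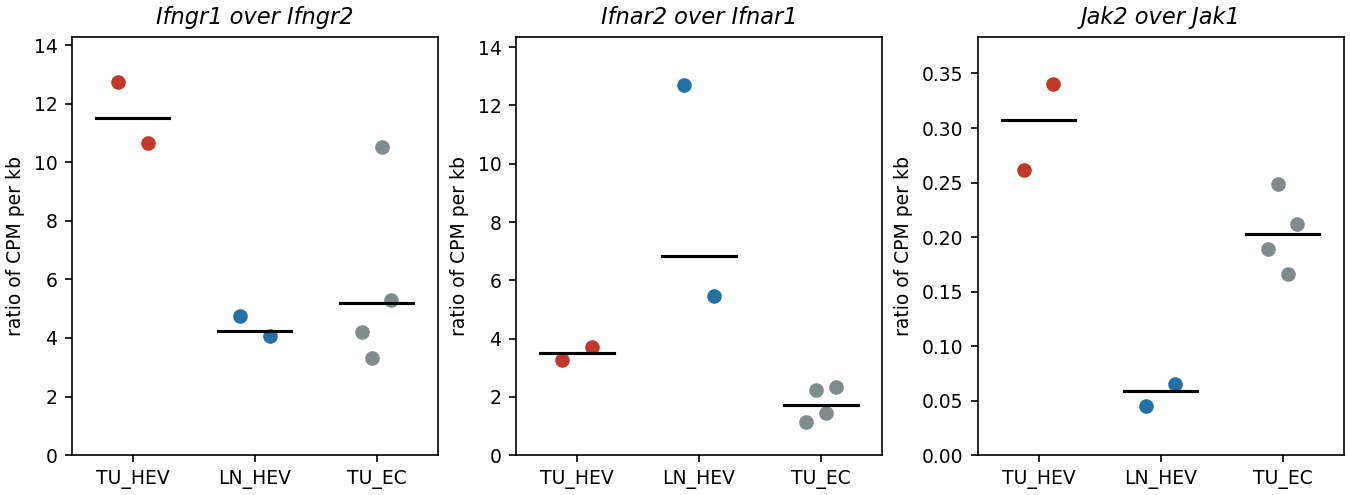
Ratios of CPM per kb (linear axes from 0) between 2 chains of a receptor or 2 kinases, with points for plates and lines for all cells of a group. Ifngr1 over Ifngr2 is highest in both TU_HEV plates (10.6 and 12.8), and Jak2 over Jak1 is at most 0.0649 in the LN_HEV plates.

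Stat2, which carries the activation domain of ISGF3 (chr10:128270559-128292849, plus), was at 57.0 and 70.5 CPM in the TU_HEV plates and at 15.1 and 29.9 in the LN_HEV plates. The TU_EC plates had 46.7, 39.0, 44.4 and 34.5 CPM. TU_EC lay between the MECA-79+ gates with no overlap of plates. TU_HEV over LN_HEV was 2.69 (2.59 to 2.80), with 1.90 to 4.66 over plate pairs and 4.26 without pool2. TU_HEV over TU_EC was 1.57 (1.52 to 1.61) and LN_HEV over TU_EC 0.582 (0.559 to 0.605). The second of these was 0.368 without pool2. Stat2 had a count in 36.7% of TU_HEV cells, 21.4% of LN_HEV cells and 31.7% of TU_EC cells. The top 10% of cells held 64.0% of the Stat2 counts in TU_HEV, 86.9% in LN_HEV and 73.0% in TU_EC.

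Irf1, a transcription factor and early interferon target that acts on antigen presentation genes (chr11:53770014-53778374, plus), was high in both TU_HEV plates. Its plates read 929 and 709 CPM in TU_HEV, 107.3 and 135.1 in LN_HEV, and 283.03, 243.1, 189.3 and 142.1 in TU_EC. All TU_HEV plates lay far above the rest, and all TU_EC plates lay above both LN_HEV plates. The level was 806 CPM (801 to 810) in TU_HEV, 123.9 (122.04 to 125.7) in LN_HEV and 214.6 (212.7 to 216.5) in TU_EC. Between the MECA-79+ gates the ratio, TU_HEV over LN_HEV, was 6.51 (6.40 to 6.61), with 5.25 to 8.66 over plate pairs, above the ratio of 95.1% of features. Within tumours TU_HEV over TU_EC was 3.76 (3.72 to 3.80) and LN_HEV over TU_EC 0.577 (0.567 to 0.587), or 1.73-fold lower. With the 11 pool1 libraries put back, TU_HEV over LN_HEV was 3.65 and LN_HEV over TU_EC was 1.03. Of the Irf1 exon bases 3.40% also lie in Gm17334 on the other strand, a model at 2.75 CPM in TU_HEV, 1.46 in LN_HEV and 0.767 in TU_EC. Whether counting used strand is not given in the sources used here.

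Irf7, which drives the amplification of type I interferon genes and is itself an interferon target (chr7:141262706-141266481, minus), was the least even of the members. Its plates read 47.6 and 92.9 CPM in TU_HEV, 6.26 and 22.6 in LN_HEV, and 35.2, 37.8, 33.1 and 27.7 in TU_EC. The groups did not overlap, but the plates differed 1.95-fold within TU_HEV and 3.62-fold within LN_HEV. For Irf7 TU_HEV over LN_HEV was 4.55 (4.35 to 4.77), with 2.10 to 14.8 over plate pairs and 11.7 without pool2. TU_HEV over TU_EC was 2.17 (2.10 to 2.23), which was 1.41 without pool4 and had a log2 ratio of 0.67 when every cell was thinned to the same depth. LN_HEV over TU_EC was 0.476 (0.454 to 0.499), or 2.10-fold lower, with 0.186 without pool2 and a log2 ratio of -0.57 without pool1. In LN_HEV a single pool2 cell held 59.9% of the Irf7 counts. Without the highest cell of each group, Irf7 was at 61.0 CPM in TU_HEV, 6.49 in LN_HEV and 32.2 in TU_EC. On the log2 scale TU_HEV over LN_HEV was then 3.23 and TU_HEV over TU_EC 0.92. Without pool4 the first of these was 1.57. The shared exon bases of Irf7 and the opposite-strand gene Phrf1 number 45 (1.19%), and Phrf1 had 19.9 CPM in TU_HEV, 46.5 in LN_HEV and 38.0 in TU_EC.

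For every member except Irf1 the LN_HEV plates lay further apart than the TU_HEV plates. All 9 members were higher in pool2 than in pool1, by a median log2 of 0.84, where the median of 8222 features was 0.53. Ribosomal RNA took 23.8% of pool1 counts and 6.39% of pool2 counts. Its part in the spread between the plates was not tested. Over the groups ribosomal RNA took 8.09% of counts in TU_HEV, 13.4% in LN_HEV and 25.3% in TU_EC. Taken above the median log2 of all features, TU_HEV over LN_HEV was 2.41 for Irf1, 2.14 for Jak2, 1.89 for Irf7, 1.14 for Stat2 and 0.64 for Ifngr1. On the same scale it was -0.24 for Jak1, -0.76 for Ifnar2 and -0.80 for Ifngr2.

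Within groups, single cells differed widely. Irf1 in TU_HEV had a lower quartile of 0.864 CPM, a median of 251.4, an upper quartile of 1143 and a highest cell of 3934. In LN_HEV its median was 48.3 CPM, its upper quartile 217.3 and its highest cell 1025. In TU_EC its median was 13.2 CPM, its upper quartile 224.4 and its highest cell 2632. The upper quartile of Irf1 in TU_HEV thus lay above the highest LN_HEV cell. The top 10% of cells held 43.4% of the Irf1 counts in TU_HEV, 41.4% in LN_HEV and 64.4% in TU_EC. Jak1, the most even member, had 30.0% of its counts in the top 10% of TU_HEV cells, 27.6% in LN_HEV and 37.8% in TU_EC.

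**Figure D4:**
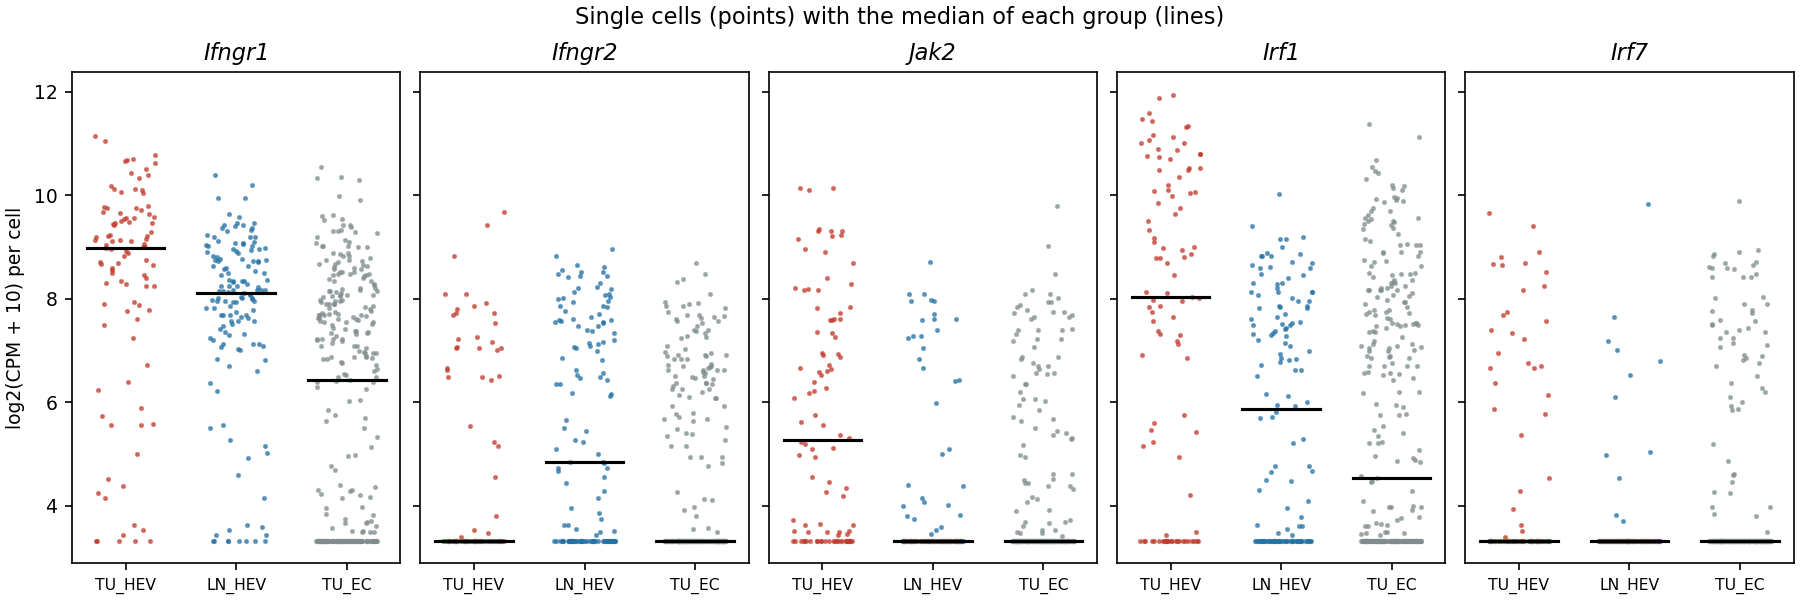
Level per cell as log2(CPM + 10) for 5 members, with the retained cells of TU_HEV (98), LN_HEV (140) and TU_EC (4 plates) as points and the median of each group as a line. The lowest row of points is cells with no count. Irf1 in TU_HEV spreads from 0 to 3934 CPM, and Irf7 in LN_HEV has a count in 12 of 140 cells.

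To compare shares of cells, each cell was thinned to 100000 counts, which left out 1 LN_HEV and 3 TU_EC cells with fewer counts. These counts include ribosomal RNA, which took 8.09% of all counts in TU_HEV, 13.4% in LN_HEV and 25.3% in TU_EC. Depth in the other genes was thus not made equal. Jak2 was detected in 63.3% of TU_HEV cells (52.9 to 72.8), 20.1% of LN_HEV cells (13.8 to 27.8) and 23.3% of TU_EC cells (18.7 to 28.5). Before thinning these shares were 72.4%, 24.3% and 27.7%, in the same order of groups. Irf7 was detected in 30.6% of TU_HEV cells (21.7 to 40.7), 7.91% of LN_HEV cells (4.02 to 13.7) and 19.3% of TU_EC cells (15.0 to 24.3). For these 2 genes the TU_HEV share was more than 3 times the LN_HEV share. Before thinning Irf7 was detected in 32.7% of TU_HEV cells, 8.57% of LN_HEV cells and 20.8% of TU_EC cells.

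Irf1 differed less in its share than in its level. After thinning it was detected in 72.4% of TU_HEV cells (62.5 to 81.0), 59.0% of LN_HEV cells (50.3 to 67.3) and 53.7% of TU_EC cells (47.8 to 59.4). Its mean thinned count per cell was 71.8 in TU_HEV, 12.8 in LN_HEV and 18.7 in TU_EC. Ifngr1 showed the same between the MECA-79+ gates, with 88.8% of TU_HEV cells (80.8 to 94.3) and 89.9% of LN_HEV cells (83.7 to 94.4), against 58.7% of TU_EC cells (52.9 to 64.3). Ifngr2 went the other way, with 29.6% of TU_HEV cells (20.8 to 39.7), 55.4% of LN_HEV cells (46.7 to 63.8) and 31.3% of TU_EC cells (26.1 to 36.9). Ifnar2 was likewise detected in fewer TU_HEV cells (64.3%) than LN_HEV cells (89.2%), and in 57.3% of TU_EC cells. The unthinned shares, in the order TU_HEV, LN_HEV and TU_EC, were 75.5%, 65.0% and 58.1% for Irf1, 94.9%, 94.3% and 64.4% for Ifngr1, and 34.7%, 62.9% and 33.3% for Ifngr2.

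Both chains of the interferon gamma receptor were detected together in 28.6% of TU_HEV cells (19.9 to 38.6), 51.1% of LN_HEV cells (42.5 to 59.6) and 21.3% of TU_EC cells (16.8 to 26.4). The product of the single shares, the value for chains detected independently, was 26.3% in TU_HEV, 49.8% in LN_HEV and 18.4% in TU_EC. Both chains of the type I receptor were detected in 28.6% of TU_HEV cells, 30.9% of LN_HEV cells and 27.3% of TU_EC cells, where the products were 26.9%, 31.4% and 24.8%. Jak1 and Jak2 were found together in 57.1% of TU_HEV cells (46.7 to 67.1), 19.4% of LN_HEV cells (13.2 to 27.0) and 21.0% of TU_EC cells (16.5 to 26.1). Their products were 57.5%, 19.7% and 17.5%, in the same order of groups. All 4 of Ifngr1, Ifngr2, Jak1 and Jak2 were detected in 17.3% of TU_HEV cells (10.4 to 26.3), 10.1% of LN_HEV cells (5.62 to 16.3) and 6.33% of TU_EC cells (3.86 to 9.71). The products of the 4 single shares were 15.1%, 9.82% and 3.22%, of which only that of TU_EC lay outside the interval. A cell without a count at this depth is not shown to lack the transcript.

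Of the other genes of the pathway, no ligand reached 10 CPM, and all 10 listed interferon genes, Ifng among them, were at 0 in every group. A count of 0 allows up to 0.0205 CPM in TU_HEV, 0.0212 in LN_HEV and 0.0135 in TU_EC (3 counts over a group). Among 4 other receptor chains and kinases at 10 CPM or more, Tyk2 was 2.65-fold higher in TU_HEV (30.4 CPM) than in LN_HEV (11.4 CPM), but 1.69-fold without pool1, whose level was 1.80 CPM against 18.0 in pool2. Without pool2 the ratio was 16.8. That is 1 of 4, near the 21.9% of all features. Il6st, the shared chain of interleukin 6 family receptors, had 1244 CPM in TU_HEV, 1126 in LN_HEV and 170.7 in TU_EC. It was the only one of that list past 2-fold against TU_EC, from either MECA-79+ gate. Of all features 20.6% were 2-fold higher in TU_HEV over TU_EC and 17.2% in LN_HEV over TU_EC.

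Of the other STAT genes, Stat5b was 2.34-fold higher in TU_HEV (39.8 CPM) than in LN_HEV (17.0 CPM), with 4.29 CPM in pool1 and 25.6 in pool2. The ratio was 1.56 without pool1 and 9.28 without pool2. Stat5a, used by many cytokine receptors, had 24.8 CPM in TU_HEV, 24.4 in LN_HEV and 4.41 in TU_EC. Both Stat5a and Stat6 were more than 2-fold higher in TU_HEV than in TU_EC, as were 20.6% of all features. For Stat6 that ratio was 2.04, and it was 1.89 without pool4, 1.99 without poolA and 1.94 without poolD. Of 4 other IRF genes, Irf8 alone passed 2-fold in TU_HEV over LN_HEV, which is near the 21.9% of all features. Irf8, best known from myeloid cells, had 113.03 CPM in TU_HEV, 18.4 in LN_HEV and 110.4 in TU_EC. The myeloid markers summed to 5.62 CPM in TU_HEV, 5.98 in LN_HEV and 2.14 in TU_EC, and none of the 6 reached 10 CPM. At 0 were Lyz2, Fcer1g, Adgre1 and Itgam in TU_HEV, Tyrobp, Adgre1 and Itgam in LN_HEV, and Lyz2, Tyrobp and Itgam in TU_EC. Their part in the Irf8 levels was not tested. Irf9, the DNA-binding part of ISGF3, had 72.7 CPM in TU_HEV, 42.2 in LN_HEV and 65.0 in TU_EC. Tyk2, Stat5b, Stat6 and Irf9 were picked out after their values were seen.

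Negative regulators at 10 CPM or more numbered 9, of which 4 were at least 2-fold higher in TU_HEV than in LN_HEV (Socs1, Usp18, Socs3 and Ptpn1), where 21.9% of features were, and none was 2-fold lower, against 8.87%. Socs1, which blocks JAK kinases, had 34.3 CPM in TU_HEV, 4.07 in LN_HEV and 10.5 in TU_EC. Usp18, which damps signalling at IFNAR2, had 55.5 CPM in TU_HEV, 10.4 in LN_HEV and 11.3 in TU_EC. In TU_HEV over LN_HEV, Socs1 was 8.43-fold higher, or 16.6-fold without pool2, and Usp18 was 5.35-fold higher, or 3.29-fold without pool1 and 70.4-fold without pool2. Socs3, the most abundant of the list, had 772 CPM in TU_HEV, 215.9 in LN_HEV and 263.99 in TU_EC. In TU_HEV over TU_EC 5 were 2-fold higher (Socs1, Usp18, Socs3, Cish and Ptpn2), against 20.6% of features. Ptpn2 was 3.14-fold higher there, but 1.70-fold without pool3 and 4.96-fold without pool4. Cish, a STAT5 target, had 39.1 CPM in TU_HEV, 20.7 in LN_HEV and 8.76 in TU_EC. The ratio of TU_HEV over TU_EC for Cish was 4.46, and 8.69 without poolB. In LN_HEV over TU_EC Cish and Ptpn2 were 2-fold higher and Socs1 was lower, against 17.2% and 15.7% of features. These calls turn on single plates, for the ratio was 1.90 for Cish without pool2 and 1.84 without poolD, and just under 2 without poolC. It was 1.93 for Ptpn2 without poolB, and for Socs1 0.518 without pool1 and 0.197 without pool2. Without poolB it was 4.61 for Cish. Ptpn1 and Ptpn2 were named after their values were seen.

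Among 10 sensors and adaptors of nucleic acid at 10 CPM or more, Tmem173 (STING) and Myd88 were at least 2-fold higher in TU_HEV than in LN_HEV, and Ikbke was lower. These 2 of 10 and 1 of 10 are near the 21.9% and 8.87% of all features. Myd88 was 3.03-fold higher, or 6.73-fold without pool2. Tmem173 had 549 CPM in TU_HEV, 241.2 in LN_HEV and 199.5 in TU_EC. Ikbke, a kinase that activates IRF factors, had 1.68 CPM in TU_HEV, 12.3 in LN_HEV and 1.60 in TU_EC, with plates at 3.78 and 0.0122 CPM in TU_HEV, 5.89 and 16.7 in LN_HEV and 0 to 5.87 in TU_EC. In TU_HEV over TU_EC 5 of 9 were higher (Ddx58, Tmem173, Myd88, Tlr3 and Mavs) and Ticam1 was lower, against 20.6% and 6.55% of features. Of these ratios, that of Tlr3 was 1.95 without pool3 and that of Mavs 1.91 without poolA and 1.98 without poolB. That of Ticam1 was 0.856 without pool4, 0.725 without poolD and 0.181 without pool3. In LN_HEV over TU_EC Dhx58 and Ikbke were higher, 2 of 10, near the 17.2% of all features, and none was lower. Without pool1 this count was 5 higher, and without pool2 it was 3 lower. Apart from Tmem173, the genes in these sentences were named after their values were seen.

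Known targets of the pathway were mostly higher in TU_HEV than in both other groups. The shares of all features are again 21.9% higher in TU_HEV over LN_HEV, 20.6% higher in TU_HEV over TU_EC and 15.7% lower in LN_HEV over TU_EC, with median log2 ratios of 0.29, 0.40 and 0.13. Of 9 targets of the interferon gamma kind at 10 CPM or more, 8 were at least 2-fold higher in TU_HEV than in LN_HEV and none was lower, with a median log2 ratio of 3.41, the exception being Cd274. The ratio of Cd274 was 1.71, with 2.02 without pool3 and 1.32 without pool4. In TU_HEV over TU_EC 8 of 10 were higher, with a median of 1.36, the others being Cxcl9 and Ciita. Without pool3 this was 6 of 10. In LN_HEV over TU_EC 6 of 10 were lower, with a median of -1.74. Cxcl9, a chemokine for CXCR3-bearing T cells, had 483 CPM in TU_HEV, 14.2 in LN_HEV and 391 in TU_EC. Its ratio of TU_HEV over TU_EC was 1.24, with 0.90 without pool3 and 2.07 without poolB. Gbp2, a guanylate-binding protein, had 796 CPM in TU_HEV, 52.3 in LN_HEV and 374.6 in TU_EC. Iigp1, an immunity-related GTPase, had 1232 CPM in TU_HEV, 115.6 in LN_HEV and 304.4 in TU_EC. Gbp3 and Igtp, of the same 2 families, were 11.2-fold and 12.7-fold higher in TU_HEV than in LN_HEV, and Gbp3 17.4-fold without pool2. Against TU_EC the ratio for Gbp2 was 2.13, with 1.74 without pool3, 1.89 without poolC and 1.85 without poolD. Members of these families resemble each other, so counts could be split between copies. Cd274, Ciita, Ifit3, Ifi44 and Rtp4 are named because they were exceptions, after their values were seen.

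Of 10 targets of the type I kind, 9 were at least 2-fold higher in TU_HEV than in LN_HEV, the exception being Ifit3, where 21.9% of features were. The median log2 ratio was 2.49, against 0.29 for all features. In TU_HEV over TU_EC 9 of 10 were higher as well, the exception being Oas1a, with a median of 1.47, against 20.6% of features and a median of 0.40. Without pool3 this was 6 of 10. In LN_HEV over TU_EC 1 of 8 was higher (Ifit3), against 17.2% of features, and 3 were lower (Oas1a, Ifi44 and Rtp4), against 15.7%. The Ifit3 value rests on pool2, with 0.105 CPM in pool1 and 31.2 in pool2, and the count lower was 6 of 8 without pool2. For Rtp4 that ratio was 0.48, with 0.595 without pool1, 0.310 without pool2 and 0.520 without poolB. Mx2, an antiviral GTPase, had 51.6 CPM in TU_HEV, 2.82 in LN_HEV and 7.53 in TU_EC. Ifit1, which binds foreign RNA, had 74.0 CPM in TU_HEV, 6.68 in LN_HEV and 4.27 in TU_EC. The ratio of TU_HEV over LN_HEV for Mx2 was 18.3, with 35.0 without pool1 and 10.7 without pool2. For Ifit1 it was 11.1, with 18.7 without pool2. Oas1a was 6.33-fold higher in TU_HEV than in LN_HEV. Ifit2 was 6.04-fold higher, with 69.1 and 17.7 CPM in the TU_HEV plates pool3 and pool4, and 0 and 11.2 CPM in the LN_HEV plates pool1 and pool2. Without pool3 the Ifit2 ratio was 2.65, and without pool1 it was 3.60. Bst2, which tethers virus particles, had 130.3 CPM in TU_HEV, 54.3 in LN_HEV and 49.5 in TU_EC.

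Across cells the members were at most weakly tied to each other. Over 537 thinned cells in 8 plates, the Pearson r of log2(CPM + 10) averaged over plates reached 0.3 in none of the 36 pairs. Cells of a plate share preparation and differ in depth and quality, so low positive values of r are no finding. Among 3745 features detected in at least 20% of the cells of each group, the most alike to Irf1 were Nfkbia (mean r 0.33), an inhibitor of NF-kB, Irgm1 (0.32), an immunity-related GTPase, and Zfp36 (0.31), which destabilises cytokine mRNA. Over single plates r ran from 0.11 to 0.56 for Nfkbia, 0.09 to 0.58 for Irgm1 and 0.12 to 0.74 for Zfp36. The most alike to Ifngr1 were Cav1 (0.32), Atraid (0.31) and the MHC class I gene H2-D1 (0.30). Their plates ran from 0.15 to 0.46 for Cav1, 0.19 to 0.48 for Atraid and 6.41e-05 to 0.44 for H2-D1. The most alike to Ifnar2 were Hspa8 (0.32) and Eef1a1 (0.31), a chaperone and a translation factor. Their plates ran from 0.16 to 0.42 for Hspa8 and from 0.16 to 0.46 for Eef1a1. The other 6 members had no feature at 0.3.

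The r of Irf1 with gene lists differed in size between the groups, and the difference was not tested. With the mean of the 10 interferon gamma kind targets its r was 0.43 and 0.20 in the TU_HEV plates, 0.06 and 0.08 in the LN_HEV plates and 0.33 to 0.56 in the TU_EC plates. With the mean of 12 immediate early genes, a list added after the data were seen, it was 0.70 and 0.62 in the TU_HEV plates, 0.17 and 0.13 in the LN_HEV plates and 0.17 to 0.27 in the TU_EC plates. That list holds Zfp36 and the gamma kind list holds Irgm1, both named above as most alike to Irf1 in the same cells. The r with either list is therefore in part a repeat of those values. Immediate early genes are known to be induced when tissue is dissociated. They summed to 10988 CPM in TU_HEV (10341 and 11499 in its plates), 6837 in LN_HEV (5043 and 8052) and 5061 in TU_EC (4303 to 5962). Of the 12, 6 were at least 2-fold higher in TU_HEV than in TU_EC, against 20.6% of features, and 4 were in TU_HEV over LN_HEV, against 21.9% (Atf3, Nr4a1, Ier3 and Zfp36), among them Atf3 at 627 CPM in TU_HEV and 27.6 in LN_HEV. Their part in the Irf1 level of TU_HEV was not tested. The r of Irf7 with the mean of the 11 type I kind targets was 0.38 and 0.23 in the TU_HEV plates, -0.07 in pool1 and 0.50 in pool2 of LN_HEV, and 0.31 to 0.54 in the TU_EC plates. With the immediate early genes its mean r over plates was -0.07 in TU_HEV, 0.06 in LN_HEV and -0.01 in TU_EC.

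**Figure D5:**
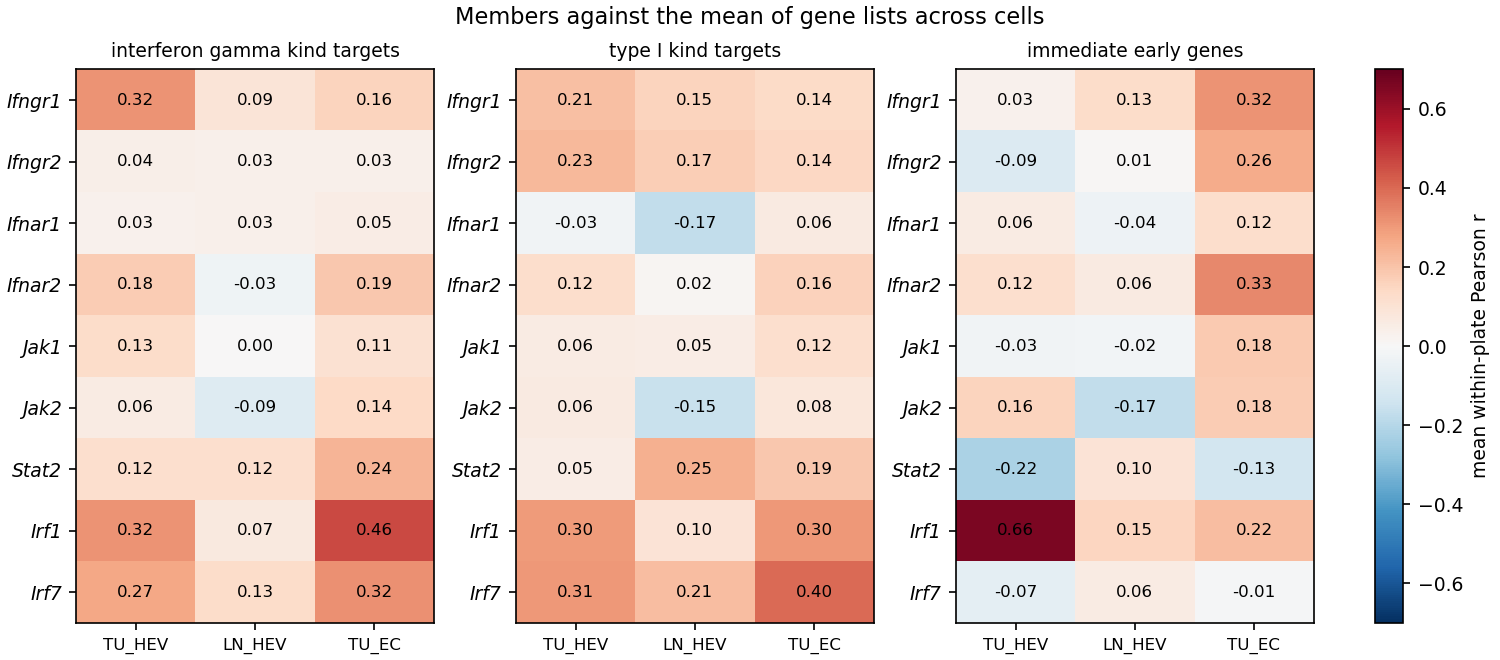
Pearson r across thinned cells, averaged over the plates of a group, between each member and the mean of 10 interferon gamma kind targets, 11 type I kind targets and 12 immediate early genes. Colour and printed number both show r. Irf1 with the immediate early genes in TU_HEV has the highest value, 0.66, and Irf1 with the gamma kind targets in TU_EC follows at 0.46. These lists hold Zfp36 and Irgm1, respectively, which are among the features most alike to Irf1 in the same cells.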

How the data were processed

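The deposited files hold raw counts of reads per gene and cell, made by the authors from single-end reads of Smart-seq2 libraries. Per the submitters' processing notes, Subread 1.4.6-p2, STAR 2.4.1b and FastQC 0.11.4 were used with mm10 (GRCm38). For the gene annotation and strand setting, the value is not given in the sources used here. Positions and exon lengths came from GENCODE, where 92.1% of the features were found.

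Repeated symbols were summed. Cells were kept with at least 50000 counts, 1000 detected genes and at most 30% mitochondrial counts. They also needed 2 of 5 pan-endothelial markers at 10 CPM and fewer than 3 of 6 markers of any other cell type (mural cell or fibroblast, epithelium or tumour, leukocyte). No doublet caller was used, since cells were sorted singly. The 11 pool1 libraries that hold TU_HEV libraries were dropped.

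Counts were summed per group, scaled to CPM and compared as ratios with exact Poisson and conditional binomial 95% intervals. No test was run, since each group is 1 sample. A feature counted as higher or lower at 2-fold with 10 CPM or more in the higher group. Thinning used seed 1. The ratio script was tested on simulated data. Alternatives were the scaling, the filters, the thinning depth, the 11 libraries, and leaving out each plate or the highest cell.

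The members and lists were chosen with earlier results of these data known. All members were named. Of each pathway list, the gene with the highest mean CPM was named, and up to 4 genes at least 4-fold apart at 20 CPM or more per comparison. Of the features most alike to a member across cells, up to 3 with a mean r of 0.3 or more were named. Python 3.11.15, numpy 2.4.6, scipy 1.17.1, pandas 2.3.3 and matplotlib 3.10.9 were used. A gene of the pathway lists is not reported here.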

Additional observations from a re-analysis of the deposited data

Results flagged for a closer look

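The 11 pool1 libraries left out of LN_HEV are in none of the main comparisons above. In them, 4 of 9 members were at more than 2-fold the level of the 140 retained LN_HEV cells. The share of all features that were so is not given here. Irf1 was at 669 CPM in these libraries, against 123.9 CPM in the retained cells, a 5.40-fold difference, and at 806 CPM in TU_HEV. Jak2 was at 76.0 CPM against 23.5, Ifnar1 at 164.1 CPM against 77.1, and Irf7 at 35.4 CPM against 16.0. Irf1 ranged from 0 to 2217 CPM over the 11 libraries, with a median of 378.2. The same libraries had 67.7 CPM of Ifngr2 against 97.8 in the retained cells, and 169.4 CPM of Ifnar2 against 294.7. These libraries hold counts of 19 TU_HEV libraries, and the share of each member that comes from those was not tested.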

How the results depend on the processing

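Each ratio was recomputed under 17 alternatives. The number of members at least 2-fold higher in TU_HEV over LN_HEV was 4 in all of them except without pool2, where it was 6, and none was 2-fold lower in any. In TU_HEV over TU_EC the number higher was 4 to 6, with 4 under size factors and under a total without ribosomal RNA, mitochondrial and the 20 highest features, and none was 2-fold lower. In LN_HEV over TU_EC the number lower, 1 in the main setting, was 0 with the 11 pool1 libraries kept, 2 with equal weight per cell and 2 with cells thinned to 100000 counts. Leaving out a plate or the highest cells gave 0 to 4 lower and 1 to 4 higher in that comparison, with both extremes in the absence of pool1 or pool2. The cause was not tested. In LN_HEV over TU_EC the median log2 of all features moved too, from 0.13 to -0.24 without pool2 and to 0.31 without pool1. That of TU_HEV over LN_HEV went from 0.29 to 0.65 without pool2. Shares of all features past 2-fold without a plate are not given here. With no minimum level, the share of all features 2-fold lower was 20.2% in TU_HEV over LN_HEV, 21.6% in TU_HEV over TU_EC and 26.4% in LN_HEV over TU_EC. Size factors moved the median log2 of all features by -0.29 in TU_HEV over LN_HEV, -0.43 in TU_HEV over TU_EC and -0.15 in LN_HEV over TU_EC. Dropping S26, S29 and S33 as well gave a log2 ratio of 2.69 for Irf1 and 2.42 for Jak2 in TU_HEV over LN_HEV. Ratios of the other pathway genes without each plate, an alternative chosen after seeing the data, stand beside those genes. The shares of cells with both chains of a receptor moved by less than their intervals at 50000 and 200000 counts. No paired analysis was possible because each group is 1 sample and plate numbers are not shared between groups. With 1 sample a group, animal, plate and condition cannot be told apart, and cells with few counts limit the shares.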
